A study of Bos taurus with 16 samples.

Results

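The cathepsins are proteases of the lysosome, and their RNA was followed here in CD14+ cells sorted from the endometrium and from the blood of 4 pregnant cows (Bos taurus). Members were the array probes that the files name CTS plus 1 capital letter, either as the gene name or as the symbol in brackets in the description. This gave 14 of the 21475 probes on the array, which stand for 13 of the 20459 genes or transcripts that could be told apart by name. They were CTSB, CTSC (2 probes), CTSD, CTSF, CTSG, CTSH, CTSK, CTSL, CTSO, CTSS, CTSV, CTSW and CTSZ, of which 8 carry such a symbol as their gene name in the files. The probe that the files call CTSL is CTSV in the RefSeq gene table for ARS-UCD2.0, and another probe, described in the files as similar to cathepsin L, is CTSL there. The newer names are used throughout. The probe called CTSG is listed in that table without a symbol and carries the name that the files give.

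Animal 1 was at day 164 of pregnancy, and animals 2, 3 and 4 were at days 239, 242 and 248. The cows were collected at an abattoir, no treatment was given, and no nonpregnant animal was included. CD14, a surface protein that helps to sense bacterial lipopolysaccharide, marks monocytes and macrophages. Endometrial CD14+ cells were sorted from the enzymatically dispersed stromal part of the tissue and blood CD14+ cells from the mononuclear cells, and the labels give a lower purity by flow cytometry for the endometrial preparations. RNA of both tissues of an animal was amplified, labeled with Cy3 or Cy5 and hybridized on the same array, and each animal had 2 arrays, 1 on each of 2 slides. The dyes were swapped between the slides in 3 animals and not in animal 3, whose values are therefore open to dye bias. The RNA is from a bulk of sorted cells, so a larger share of cells of a type and more RNA per cell cannot be told apart.

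Cathepsins are made as inactive precursors, are carried to the lysosome largely by mannose 6-phosphate receptors, and become active at its low pH. Most members are cysteine proteases, while CTSD is an aspartic protease and CTSG a serine protease of granules. In macrophages they digest engulfed protein and cut antigens for MHC class II molecules, and secreted forms can degrade extracellular matrix. Cystatins are tight inhibitors of the cysteine cathepsins.

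The probes of the paralogs CTSL and CTSV are shown first because the genes are close relatives, of which CTSV had the largest ratio and CTSL was near background. Both are 60 bases long, and their best alignment has 41 equal bases in 50 columns, or 82.0%, with no shared run longer than 10 bases. Below are bases 1 to 30 of the CTSL probe and bases 11 to 40 of the CTSV probe, in the strand the files give, with the 5 bases that differ in capitals.
CTSL: aagttgtgatCtgaatTctgtgacCTtttA
CTSV: aagttgtgatTtgaatGctgtgacGAtttT

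The probes of 4 members hold AATAAA, the polyadenylation signal usually found near the end of a transcript, searched in the strand as given. They are shown because 3 of them (CTSZ, CTSW and CTSB) had among the largest ratios of the family and CTSK the least even one. AATAAA was in 28.6% of the cathepsin probes and in 11.8% of all probes on the array, which describes where probes were placed and nothing more. A stretch of 30 bases of each is given with AATAAA in capitals. It starts at base 2 of the CTSK probe and at bases 41 to 44 of the others. Whether it acts as a signal there was not tested.
CTSZ: gcccaagtgatgAATAAAatgcacacttca
CTSW: cgctggggattgAATAAAgcaagacaagat
CTSB: aggaatggctgccAATAAAaagcctctcct
CTSK: tAATAAAtagctgtttagtaaacattcatt

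CTSC is the only member with 2 probes, which share no run longer than 5 bases and disagreed in their readings. Bases 1 to 30 of each are given, the brighter probe first.
CTSC: cgacagaaccacacaggcttatttttaaat
CTSC (dimmer probe): cgattgggccttagtttcatcagctgtaaa

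Of all spots in a channel, 65.2% to 82.9% were well above background. The labels assign each scanner file to a technical replicate, but the columns of the authors' value table matched those files at 100% of the probes only once the files of an animal's 2 technical replicates were exchanged. Files were read with this exchange. Without it the mean ratio of 8 of the 13 tested members turned, while animal 3, whose dyes were not swapped, cannot turn by it. The exchange was chosen by its match to the authors' value table, so directions in that table are not independent of it. The table, whose columns are named by sample, gave mean ratios of 5.62 for CTSV and 2.40 for CTSZ. Testing required a signal well above background in 4 or more of the 8 channels of either tissue, which left 16654 probes and 13 of the 14 members. The CTSG probe did not pass, since it was well above background in 3 of 8 channels of each tissue. Levels are log2 normalized intensities, comparable for a probe between samples and not between probes. Ratios are log2 differences of endometrium over blood within an animal, and limma tested them against 0 over 4 animals. The sort used the CD14 protein, while the array reads its RNA. The CD14 probe gave a signal well above background in 8 of 8 channels of each tissue. Its ratios were -2.08, 0.11, 0.51 and 0.13 in animals 1 to 4.

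No cathepsin probe passed an adjusted p of 0.05 together with a fold change over 2, which 0.0661% of all probes tested did. At the unadjusted p of at most 0.05 with a fold change over 2, 5 of 13 tested probes were higher in endometrium (CTSV, CTSZ, CTSW, CTSB and the brighter CTSC probe) and 0 were higher in blood. Over all probes tested those shares were 5.27% for endometrium and 5.11% for blood, against 38.5% of the tested cathepsin probes in endometrium. The median log2 ratio was 0.72 over the 13 cathepsin probes and -0.02 over all probes. The mean ratio was above 0 in 11 of the 13, while 47.4% of all probes tested had a mean above 0. In 6 of the 13 the ratio was above 0 in every animal, as it was in 10.2% of all probes tested. An exact permutation test over 4 animals cannot give a two-sided p below 0.125, so single ratios are reported with the p of the limma fit alone.

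**Figure D1:**
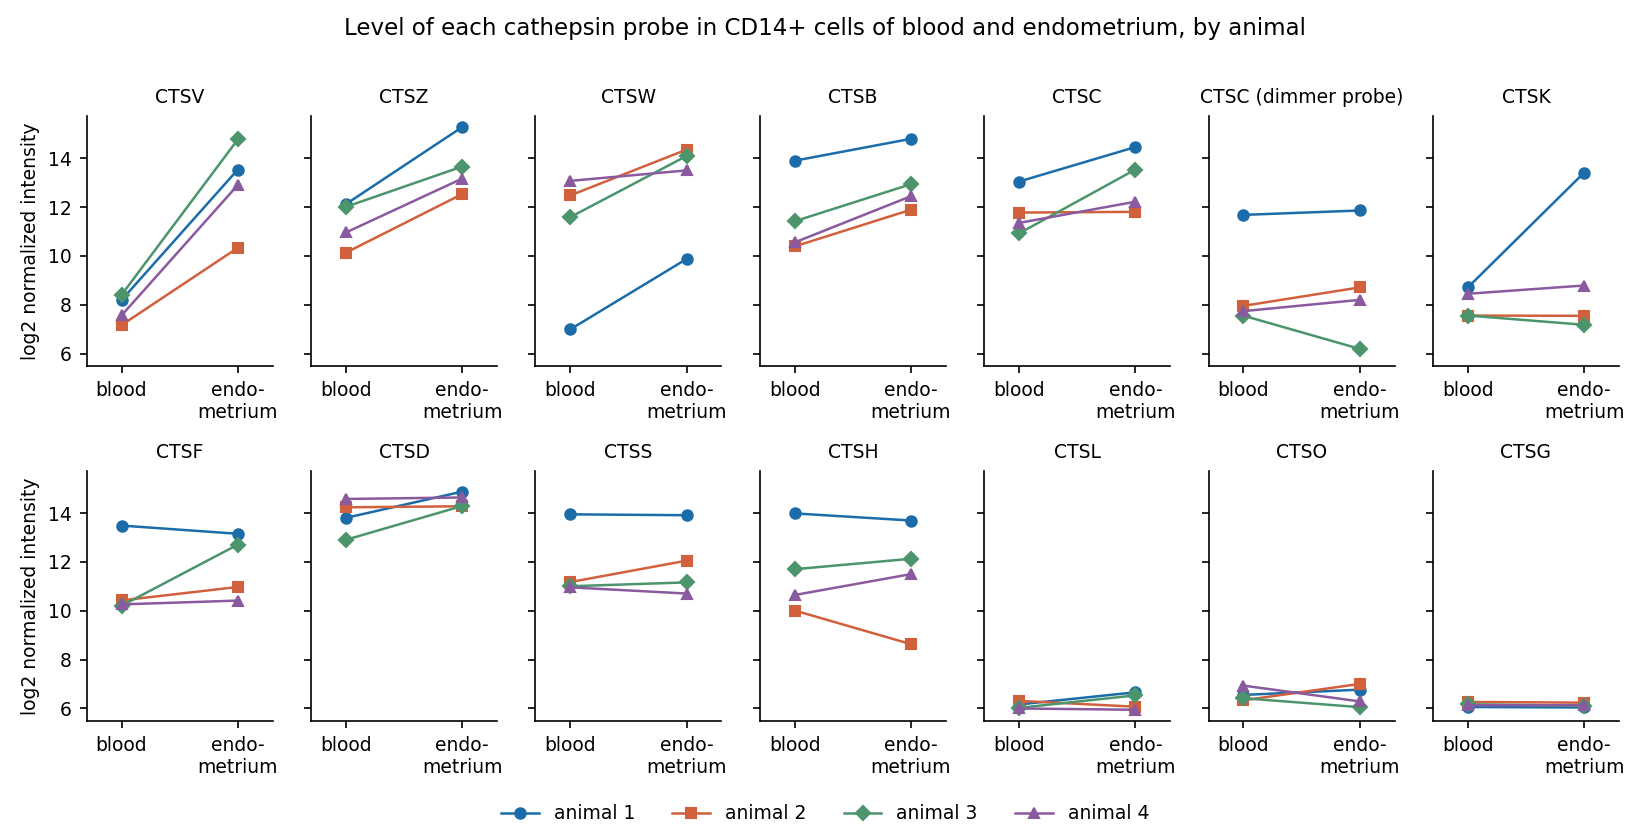
Log2 normalized intensity (y axis) of each of the 14 cathepsin probes in blood and endometrial CD14+ cells (x axis), with a line for each of the 4 animals, each point the mean of 2 arrays. The endometrial levels of CTSV and CTSZ lie above all 4 blood levels, and in the other panels the levels of the tissues overlap.

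CTSV, a cysteine endopeptidase closely related to CTSL, had the largest ratio of the family. Its blood levels were 8.19, 7.17, 8.40 and 7.56 in animals 1 to 4, and its endometrial levels were 13.54, 10.33, 14.77 and 12.91. Every endometrial level lay above every blood level, which was so for CTSV and CTSZ in the family and for 2.41% of all probes tested. The log2 ratios were 5.34, 3.17, 6.37 and 5.34, with a mean of 5.06 ± 0.54 (SE, n = 4), a fold change of 33.3. This was rank 4 of 16654 by mean ratio. The adjusted p of limma was 0.0925, which misses the threshold. It was 0.00818 with the authors' value table, 0.0120 over the 11134 probes well above background in all 16 channels, 0.0961 to 0.394 when an animal was left out, and 0.556 by the methods' analysis of variance. The tested probes with the most similar ratios in the 4 animals, by Euclidean distance among 11516 named probes, were RAB13, PAG10 and FAM174B, at distances of 0.92, 1.00 and 1.34. PAG10, a pregnancy-associated glycoprotein of the placenta, had ratios of 4.97, 3.18, 5.63 and 4.77.

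Markers of placental and epithelial cells moved in the same direction as CTSV. Of 15 trophoblast markers tested, 9 were past the unadjusted threshold in endometrium and 0 in blood, and 5 were called at the adjusted threshold (PAG4, PAG7, CSH1, PRP1 and PRP6). Over all probes tested, 5.27% were past the unadjusted threshold in endometrium, 5.11% in blood, and 0.0661% were called. The same shares stand beside the counts of every other list. The median ratio of the trophoblast markers was 2.06, 2.39, 3.17 and 2.52 in animals 1 to 4. The summed linear level of the list was 1902 to 2736 in blood and 16234 to 51323 in endometrium. This sum and the later ones cover every listed gene with a probe, here 16, also those below the filter. They include background and weigh bright probes most, so a sum is comparable only between samples of the same list. Of 14 epithelial markers, 8 were past the unadjusted threshold, all in endometrium, with medians of 1.89, 1.27, 3.85 and 1.06 and summed levels of 1561 to 4040 in blood and 13268 to 116926 in endometrium. The trophoblast transcription factor CDX2 was not well above background anywhere. CSH1, placental lactogen, had ratios of 3.82, 4.18, 4.28 and 3.46, a narrower range than that of CTSV. CTSV had its lowest ratio in animal 2 and its highest in animal 3, whose dyes were not swapped. The trophoblast and epithelial medians were highest in animal 3 too, but were lowest in animal 1 and animal 4, respectively. Other lists were higher in endometrium too. The median ratio was 3.60, 1.96, 2.91 and 3.35 for tissue macrophage markers and 4.69, -0.04, 1.41 and 0.89 for stromal markers. Both were lowest in animal 2, as CTSV was, but highest in animal 1. The part of any of these cell types in the CTSV signal was not tested.

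CTSZ, a carboxypeptidase of the cysteine class that is abundant in cells of the monocyte lineage, had the next largest ratio. Its blood levels were 12.12, 10.13, 12.01 and 10.96, and its endometrial levels were 15.28, 12.53, 13.66 and 13.17. The ratios of 3.16, 2.40, 1.65 and 2.21 gave a mean of 2.35 ± 0.30 (SE, n = 4), or 5.11-fold, with an adjusted p of 0.148 by limma. The ratio was above 2-fold in all 4 animals. CTSZ was called over the probes well above background in all channels, at an adjusted p of 0.0443, but not with the authors' value table. Tissue macrophage markers were higher in endometrium as well, with 11 of 12 past the unadjusted threshold in that direction. Of all probes tested, 5.27% were. The macrophage list had a median ratio of 2.82, with medians of 3.60, 1.96, 2.91 and 3.35 in animals 1 to 4. Its summed levels were 1571 to 26497 in blood and 6618 to 190840 in endometrium. Of 10 blood monocyte markers tested, 1 was past the unadjusted threshold, FCGR1A in endometrium (0 without animal 1 or animal 3), and the median was -0.45, with -2.22, -0.48, 0.63 and 0.38 by animal. CTSZ and the macrophage median were both highest in animal 1, but CTSZ was lowest in animal 3 and the macrophage median in animal 2. The named probes nearest to CTSZ were CNRIP1, B4GAT1 and CLN8, at distances of 0.87, 1.37 and 1.45. How far CTSZ followed a change in macrophages or monocytes was not tested.

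CTSW, a protease found mainly in natural killer and cytotoxic T cells, had blood levels of 6.99, 12.48, 11.59 and 13.07 and endometrial levels of 9.88, 14.36, 14.09 and 13.50. Both tissues of animal 1 were lowest. The ratios were 2.88, 1.88, 2.50 and 0.43, with a mean of 1.92 ± 0.45 (SE, n = 4), or 3.79-fold, and an adjusted p of 0.262 by limma. The tissues overlapped in level through animal 1, whose endometrial level of 9.88 lay below the blood levels of the other animals. In animals 2 to 4 every endometrial level lay above every blood level. The SD over all 4 animals was 2.76 in blood and 2.09 in endometrium. Of 11 markers of natural killer and T cells, 4 were past the unadjusted threshold, all in endometrium (CD3E, CD247, CD2 and NKG7). Without animal 1, 2 or 3, 1 or 2 were. The share of all probes tested past it in endometrium was 5.27%. The list had a median ratio of 0.52, with medians of 0.82, 0.95, 0.28 and 0.10 in animals 1 to 4. Of the 11, 7 had a mean above 0, and CD3D, CD3G, NCR1 and CD8A were below it. Summed levels were 3187 to 41601 in blood and 18150 to 104402 in endometrium. NKG7, a granule membrane protein of natural killer and T cells, had ratios of 2.91, 2.16, 1.17 and 0.10. NKG7 and CTSW were both highest in animal 1 and lowest in animal 4, while the list median was highest in animal 2. The named probes nearest to CTSW were RGN, DNAJB1 and MUC1, at distances of 0.48, 0.68 and 0.77, and MUC1 is on the epithelial list. The part of natural killer and T cells in the CTSW signal was not tested.

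CTSB, which acts both as an endopeptidase and as a carboxypeptidase, had the narrowest spread among the members past the unadjusted threshold. Blood levels were 13.90, 10.39, 11.42 and 10.55, and endometrial levels were 14.80, 11.89, 12.94 and 12.45. Ratios were 0.90, 1.50, 1.52 and 1.89, an SD of 0.41 over animals, and the mean was 1.45 ± 0.25 (SE, n = 4), or 2.74-fold. The adjusted p of limma was 0.237. The level was higher in endometrium in 4 of 4 animals, although the blood level of animal 1 was above the endometrial levels of the other animals. The named probes nearest to CTSB were PAG21, SIL1 and PRP3, at distances of 0.81, 0.81 and 0.85. PAG21 and PRP3 belong to families made by the placenta. The part of placental cells in the CTSB signal was not tested.

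**Figure D2:**
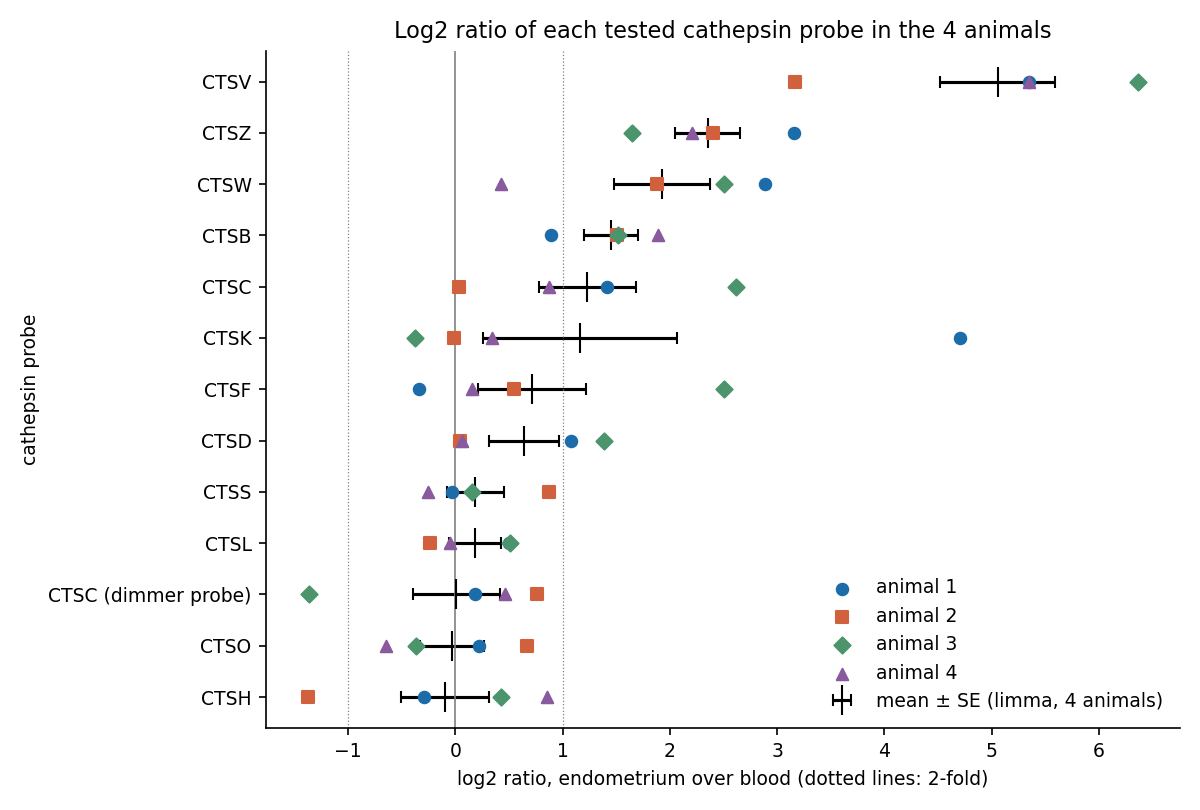
Log2 ratio of endometrium over blood (x axis) for each of the 13 tested cathepsin probes (y axis), with a symbol per animal, the mean and its SE from limma in black, and dotted lines at 2-fold. CTSV, CTSZ, CTSW, CTSB, the brighter CTSC probe and CTSD lie above 0 in all 4 animals, and CTSK is far from 0 in animal 1 alone.

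CTSC removes dipeptides and activates the serine proteases stored in granules of cytotoxic cells and neutrophils. Its brighter probe had blood levels of 13.05, 11.78, 10.92 and 11.35 and endometrial levels of 14.46, 11.81, 13.54 and 12.22. The ratios were 1.41, 0.03, 2.62 and 0.87, with a mean of 1.23 ± 0.45 (SE, n = 4), or 2.35-fold, at an adjusted p of 0.302 by limma. It passed the unadjusted threshold in 9 of 19 alternatives. The dimmer probe had ratios of 0.18, 0.76, -1.36 and 0.46 and a mean of 0.01 ± 0.40 (SE, n = 4) and an adjusted p of 0.997 by limma. In animal 3, where the brighter probe had its largest ratio, the dimmer one was not well above background in either endometrial channel. In the authors' value table the dimmer probe had a ratio of -3.93 in that animal, against 2.64 for the brighter one. The 2 probes thus gave no single direction for CTSC.

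CTSK, the collagen-degrading cathepsin of osteoclasts and activated fibroblasts, differed between the tissues in 1 animal. Blood levels were 8.71, 7.56, 7.56 and 8.45, and endometrial levels were 13.41, 7.55, 7.18 and 8.79. The ratios were 4.70, -0.01, -0.38 and 0.34, and the mean of 1.16 ± 0.91 (SE, n = 4) had an adjusted p of 0.567 by limma. Without animal 1 the mean was -0.02. On slides 1 and 2 the mean was 1.22 and 1.11, so the high value was not limited to a single array. The median ratio of 14 tested stromal markers was also highest in animal 1, at 4.69, against -0.04, 1.41 and 0.89 in the others. Of the 14 markers, 3 were past the unadjusted threshold, all in endometrium, against 5.27% of all probes tested. The count was 8 without animal 2, 1 without animal 1 or animal 4 and 0 without animal 3. The summed level of the list was 3874 to 36126 in blood and 3156 to 153151 in endometrium. The collagen COL1A1 had ratios of 5.66, -0.06, 2.04 and 2.40, and the matrix proteoglycan DCN had 7.11, 0.31, 3.17 and 1.61. Not every marker on the list was highest in animal 1. VIM had ratios of -1.86, -1.51, 0.15 and 0.31, and FN1 had 3.31, -1.41, 4.01 and 1.28. The named probes with ratios nearest to those of CTSK were CR2, P4HA3 and LUM, at distances of 0.53, 0.81 and 0.93. The nearest, CR2, is a complement receptor on the list of B cell markers. P4HA3 hydroxylates proline in collagen, and LUM, another proteoglycan of the matrix, is on the stromal list. The part of stromal cells in the CTSK signal was not tested, and animal 1 was also the only animal before day 239, so that animal and day cannot be told apart. CTSK and CTSS are neighbors in the reference gene table, with 1 gene between them, and CTSS did not share this pattern.

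**Figure D3:**
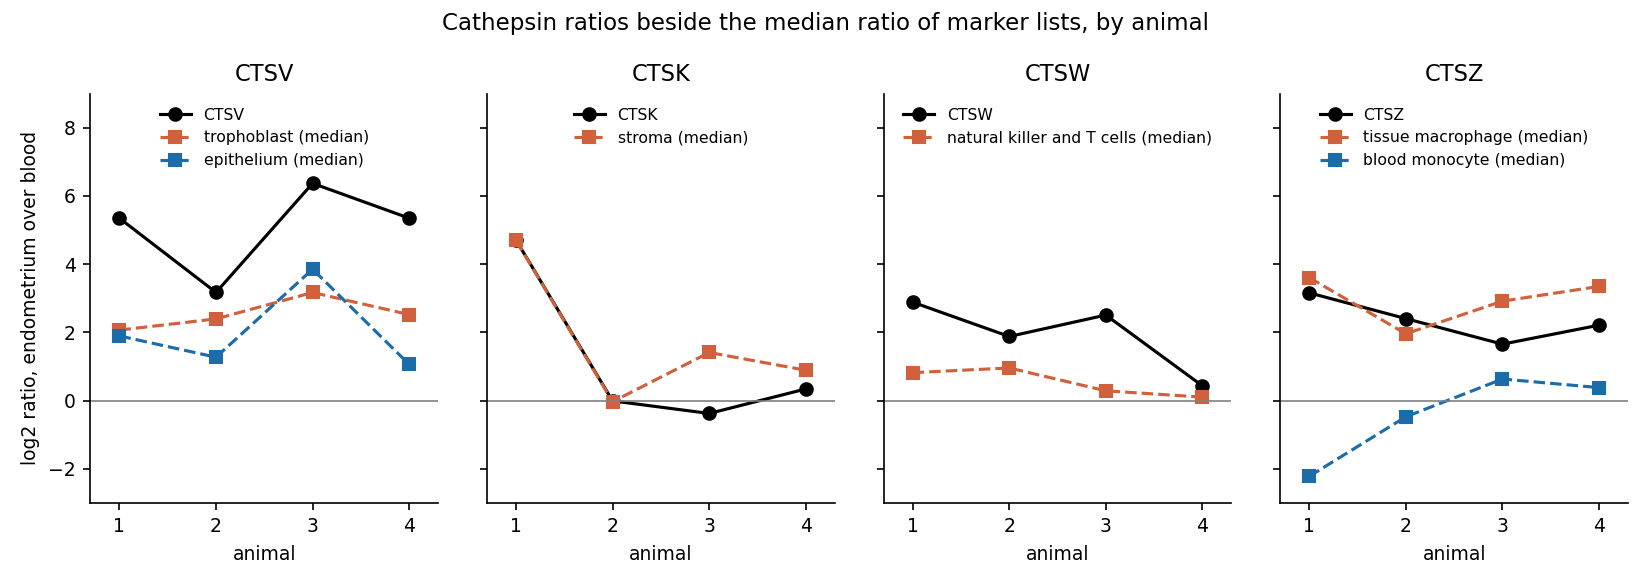
Log2 ratio of endometrium over blood (y axis) by animal (x axis) for CTSV, CTSK, CTSW and CTSZ (black circles) and the median ratio of the marker lists named in each panel (squares). The CTSK ratio and the stromal median are both near 4.7 in animal 1 and both near 0 in animal 2. In animals 3 and 4 they differ, with -0.38 and 0.34 for CTSK and 1.41 and 0.89 for the stromal median.

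CTSS, which trims the invariant chain in antigen-presenting cells and stays active outside the lysosome, had ratios on both sides of 0. Its blood levels were 13.95, 11.18, 11.01 and 10.96, and its endometrial levels were 13.92, 12.05, 11.16 and 10.71. The mean log2 ratio was 0.19 ± 0.27 (SE, n = 4), with an interval from -0.49 to 0.86 at 95% and an adjusted p of 0.782 by limma. A difference of 2-fold in either direction is outside that interval.

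CTSD, the aspartic protease that is a main digestive enzyme of the lysosome, had blood levels of 13.81, 14.24, 12.91 and 14.58 and endometrial levels of 14.88, 14.28, 14.29 and 14.64. The ratios were 1.07, 0.04, 1.38 and 0.06, over 2-fold in animals 1 and 3 and near 0 in animals 2 and 4. The mean was 0.64 ± 0.32 (SE, n = 4), with an interval from -0.17 to 1.45 and an adjusted p of 0.397 by limma. The named probes nearest to CTSD were WWTR1, ARHGAP42 and FGL1.

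CTSH, an aminopeptidase of lung and immune cells, showed opposite signs among animals. Blood levels were 13.99, 10.01, 11.70 and 10.65, endometrial levels were 13.70, 8.64, 12.13 and 11.50, and the ratios were -0.29, -1.38, 0.43 and 0.86. The mean of -0.10 ± 0.41 (SE, n = 4) had an interval from -1.13 to 0.94 and an adjusted p of 0.945 by limma.

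CTSF, a cysteine cathepsin of broad expression, had blood levels of 13.49, 10.43, 10.21 and 10.26 and endometrial levels of 13.16, 10.98, 12.71 and 10.42. Its ratios of -0.34, 0.55, 2.50 and 0.16 averaged 0.72 ± 0.50 (SE, n = 4), at an adjusted p of 0.527 by limma, and animal 3 alone was over 2-fold.

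The remaining members were dim. CTSL was well above background in 4 of 8 endometrial and 2 of 8 blood channels, and its ratios of 0.50, -0.24, 0.51 and -0.05 averaged 0.18 ± 0.24 (SE, n = 4). It was well above background in both channels of endometrium in animals 1 and 3, of blood in animal 2 and in 0 channels in animal 4. At least 1 side of every CTSL ratio is therefore near background, and CTSL was not set against CTSV. Cross-hybridization between their probes, which differ at 5 of the 30 aligned bases shown above, was not tested. With the authors' value table the mean ratio of CTSL was 1.08, and the ratios by animal were 3.11, -2.79, 3.84 and 0.16. CTSO was well above background in 6 of 8 endometrial and 8 of 8 blood channels, with ratios of 0.22, 0.67, -0.37 and -0.65 and a mean of -0.03 ± 0.29 (SE, n = 4). The CTSG probe had ratios between -0.06 and 0.01 and was not tested.

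**Figure D4:**
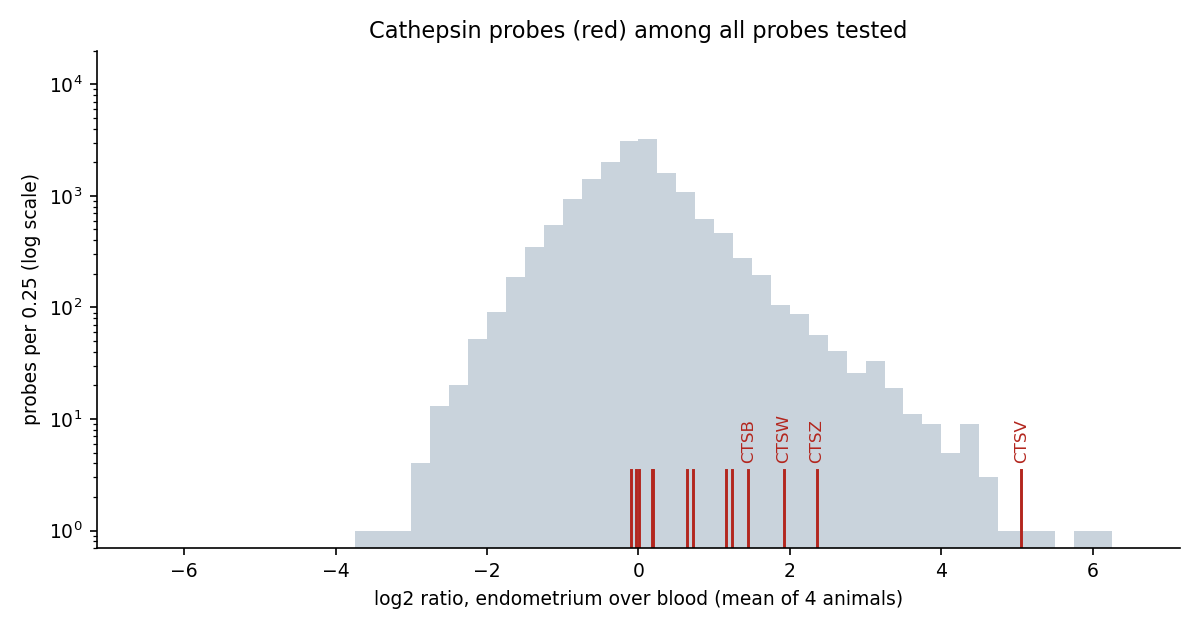
Distribution of the mean log2 ratio of endometrium over blood (x axis) over the 16654 probes tested, as probes per bin on a log scale (y axis), with the 13 tested cathepsin probes as red lines. All but 2 cathepsin lines lie above 0, and CTSV lies among the few probes near the right end.

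Levels also differed among animals. In blood, animal 1 had the highest level of the 4 animals for 8 of the 13 tested members, and in endometrium for 10 of 13. Over all probes tested, animal 1 was highest for 30.6% in blood and 18.9% in endometrium. CTSB, CTSC (both probes), CTSF, CTSH, CTSK, CTSS and CTSZ were highest in animal 1 in both tissues, while CTSW was lowest there in both. Animal 1 differs from the others in day of pregnancy and in every other way in which animals differ, and these cannot be told apart.

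The inhibitors of the cathepsins were examined next. Of 9 inhibitors with a tested probe, 0 were called at the adjusted threshold, and the median ratio was 0.75. Of the 9, 3 were past the unadjusted threshold in endometrium and 0 in blood. Over all probes tested, those shares were 5.27% and 5.11%, and 0.0661% were called. CST6 (cystatin E/M), a secreted inhibitor of CTSV and CTSL, had ratios of 2.93, 2.06, 5.71 and 3.17 and a mean of 3.47 ± 0.62 (SE, n = 4). CST3 (cystatin C), the main secreted cystatin, had ratios of 1.01, 2.79, 4.56 and 2.12 and a mean of 2.62 ± 0.59 (SE, n = 4). CSTB (stefin B), which acts inside cells, had ratios of 1.57, 2.54, 2.61 and 1.50 and a mean of 2.06 ± 0.30 (SE, n = 4). The ratios of all 3 were above 0 in every animal, with adjusted p values of 0.242, 0.262 and 0.174 by limma. CST7 (cystatin F), an inhibitor of CTSC in cytotoxic cells, averaged 0.87 ± 0.30 (SE, n = 4) and did not reach 2-fold. CSTA, CST8, SERPINB1 and A2M had mean ratios between -0.01 and 0.11, and SERPINB6 had a mean of 0.75.

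The next list held the machinery that delivers and matures lysosomal enzymes. Of 16 such genes tested, 0 were past the unadjusted threshold in endometrium and 1 in blood, with a median ratio of -0.23. Over all probes tested, 5.27% were past it in endometrium and 5.11% in blood, so 1 of 16 is near that share. The 1 gene in blood was M6PR, the small mannose 6-phosphate receptor, with ratios of -0.75, -1.53, -3.03 and -0.26. Its mean was -1.40 ± 0.49 (SE, n = 4), with an adjusted p of 0.293 by limma. Without animal 2 or animal 3, 0 genes of the list were past the unadjusted threshold, and without animal 1 or animal 4, 2 were. IGF2R, the large receptor of the same kind, averaged -0.49 ± 0.28 (SE, n = 4). LGMN, which cleaves cathepsin precursors, had ratios of 1.21, -4.51, -0.03 and 0.38, so that animal 2 was far on the side of blood and animal 3 near 0. TFEB, a transcription factor that activates lysosomal genes, averaged -0.14 ± 0.22 (SE, n = 4).

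Other lysosomal proteins gave mixed results. Of 5 further lysosomal peptidases tested, CTSA was past the unadjusted threshold in endometrium and NAPSA in blood, and 1 was without animal 1 or animal 3. Over all probes tested, the shares past that threshold were 5.27% in endometrium and 5.11% in blood. CTSA, a serine carboxypeptidase whose probe carries another name in the files and so lies outside the family as defined here, had ratios of 1.56, 0.60, 2.69 and 1.00 and a mean of 1.46 ± 0.39 (SE, n = 4). NAPSA, an aspartic protease related to CTSD, had ratios of -3.93, -2.20, -4.08 and 0.11. Of 9 lysosomal membrane genes, CD63 and CD68 were past the unadjusted threshold, both in endometrium, and the median was 0.09. Without animal 1, 3 or 4, 1 gene of that list was past the threshold, and 3 were without animal 2. The tetraspanin CD63 had ratios of 1.99, 3.59, 4.71 and 1.68, while LAMP1, the most abundant protein of the lysosomal membrane, averaged 0.73 ± 0.40 (SE, n = 4). The brighter LAMP2 probe averaged -0.23 and the other 0.86. NPC1, the cholesterol carrier, was below 0 in 4 of 4 animals, with a mean of -0.95 ± 0.33 (SE, n = 4).

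The partners of CTSS and CTSL in loading antigens on MHC class II were measured by 4 genes. Of these, 0 were past the unadjusted threshold (1 without animal 4), and the median ratio was -0.79. CD74, the invariant chain that CTSS trims, had ratios of 0.58, -2.89, -2.43 and 0.72. IFI30, the reductase of the same compartment, had ratios of 1.36, -0.86, -3.08 and 0.27. BOLA-DMB, a chain of the peptide exchanger, averaged -1.26 ± 0.57 (SE, n = 4), and BOLA-DMA averaged -0.30 ± 0.35 (SE, n = 4). Both CD74 and IFI30 were above 0 in animals 1 and 4 and below 0 in animals 2 and 3. B cells carry MHC class II molecules as well. Their markers had a median ratio of -1.58, and 3 of 8 were past the unadjusted threshold in blood, against 5.11% of all probes tested. The count was 1 without animal 2 and 5 without animal 4. Summed levels were 6844 to 38824 in blood and 3381 to 16695 in endometrium. The part of B cells in these values was not tested.

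**Figure D5:**
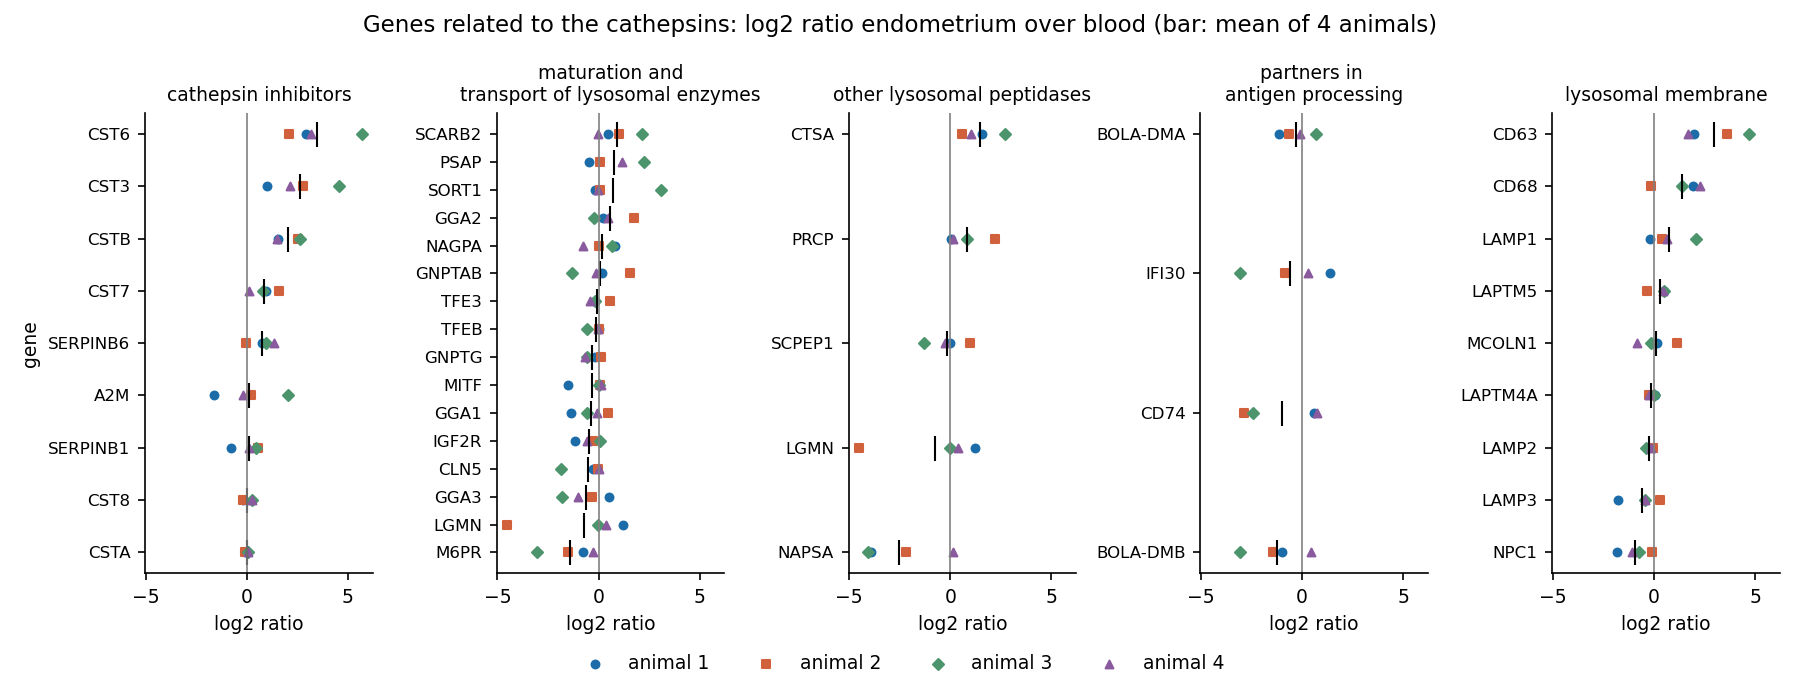
Log2 ratio of endometrium over blood (x axis) in each of the 4 animals (symbols) and its mean (black bar) for the tested genes of 5 related lists (y axis). CST6, CST3, CSTB and CD63 lie above 0 in all 4 animals, and most genes of maturation and transport are spread around 0.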

How the data were processed

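RNA of CD14+ cells was measured on 8 Agilent bovine arrays with 2 colours, 16 channels in all. The authors deposited scanner files with the median, mean and processed intensity of each spot and dye (Feature Extraction 10.5.1.1 in the headers, 9.5 in the labels). They also deposited a table of log2 values, normalized by lowess and by quantiles, and matched here at a tolerance of 0.001.

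Median intensities were corrected with normexp (offset 50), normalized by loess (each array) and quantiles (all channels together), and averaged over the spots of a probe and the 2 arrays of an animal. The ratio was tested against 0 over 4 animals with lmFit and eBayes of limma 3.58.1 in R 4.3.3 (statmod 1.5.0, data.table, version 1.17.8) and Benjamini-Hochberg adjustment over all probes tested. The fit was tested on simulated data. Depth has no counterpart on arrays, whose number limits precision.

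Pairing comes from the labels, which number the animals. As a check, the deviations from the tissue means correlated between blood and endometrium of an animal with r of 0.618, 0.364, 0.209 and 0.465.

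Probes were named through the reference table by identifier or accession, and 6627 probes kept the name of the array design. Of several probes of a gene the brightest stands for it. All cathepsin probes, all genes of the lists and the 3 nearest probes were eligible to be named. Members and lists were chosen with earlier results of these data known. Lists of granulocyte markers were also examined (4 of 6 with a mean above 0, 0 past the unadjusted threshold or 1 without animal 4, median 0.13). Alternatives changed the source of the values, the normalization, the filter, the pairing, the dye term, the slides, the animals and the threshold. The qPCR was not analysed here.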

Additional observations from a re-analysis of the deposited data

Results flagged for a closer look

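Among 39 sets of 4 animals (ratio, blood level and endometrial level of the 13 tested cathepsin probes), 4 had an animal whose distance to the nearest of the others was too large a part of the range by Dixon's criterion at the level of 95%. Chance alone sets about 5% of such sets apart. All 4 concern animal 1. The CTSK ratio was 4.70 in animal 1 and -0.38 to 0.34 in the others. The blood level of CTSS was 13.95 in animal 1 and 10.96 to 11.18 in the others. The blood level of CTSF was 13.49 in animal 1 and 10.21 to 10.43 in the others. The blood level of the dimmer CTSC probe was 11.68 in animal 1 and 7.55 to 7.95 in the others. Over all 16654 probes tested, animal 1 stood apart in this way in blood for 7.26% and animals 2, 3 and 4 for 0.961%, 1.36% and 0.648%. The ratio of animal 1 stood apart for 1.33% of all probes tested, and those of animals 2, 3 and 4 for 1.04%, 3.5% and 1.04%. The highest of these shares was that of animal 3, whose dyes were not swapped.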

How the results depend on the processing

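The number of cathepsin probes called at the adjusted threshold was 0 and became 1 with the authors' value table, with the processed signal and with a robust, intensity-dependent prior (CTSV each time), 2 over probes well above background in all 16 channels (CTSV and CTSZ), 4 with the 8 arrays as units, a term for dye and animals as random blocks (CTSB, CTSV, CTSW and CTSZ), and 5 with an unadjusted p. That last fit over arrays called 4.76% of all probes. The 5 past the unadjusted threshold became 0 with the scanner files as attached and 2 without the replicate block, that is, with the animals unpaired. Leaving out an animal gave 0 called each time and 4 to 5 past the unadjusted threshold. Under leave-one-out the counts past the unadjusted threshold were 0 to 2 for maturation and transport, 1 to 2 for other peptidases, 0 to 1 for antigen processing and 1 to 3 for the lysosomal membrane. Directions turned with the files as attached, which inverts the dye swap of 3 animals, to -0.69 for CTSB, -0.69 for the dimmer CTSC probe, 0.31 for CTSH, -1.35 for CTSK, -0.11 for CTSS, -1.87 for CTSV, -0.67 for CTSW and -1.53 for CTSZ. The other ratios that turned were those of CTSK, 1.16 with all animals and -0.018 without animal 1, and of 4 probes with main values near 0. The cause was not tested. The dimmer CTSC probe was -0.51 with the authors' table, -0.61 with the processed signal, -0.014 with the dye term, -0.071 on slide 2, and -0.24 to 0.47 without an animal. CTSH was 0.0051 with loess alone, 0.043 with median centring alone and -0.41 to 0.33 without an animal. CTSO was 0.059 and 0.088 with these normalizations and -0.27 to 0.17 without an animal. Without an animal, CTSK was -0.018 to 1.68 and CTSS -0.044 to 0.33. CTSB, CTSV, CTSW and CTSZ kept their direction in the other 18 alternatives. Dim probes such as CTSL and CTSO are limited by signal over background.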
